A study of Mus musculus with 12 samples.

Results

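The regions described here are 345 accessible domains that were called after induction of Hoxc6 and after induction of Hoxc10, but missing from the other lists used. They were selected on the measured lists themselves. A domain of the iHoxc10 list was taken if it was 150 bp or wider, lay on chromosomes 1 to 19, X or Y, overlapped a domain of the iHoxc6 list by at least 1 bp, and overlapped no domain of the embryoid body (EB), day 2, no Dox and iHoxc9 lists. The iHoxc10 list holds 33814 domains of that width, so 1.02% of them met the rule, out of 482514 domains of all widths in the 6 lists. Since presence in these lists chose the regions, that they were found with Hoxc6 and Hoxc10 and missed with Hoxc9 is the choice and no result. They are called iHoxc6/iHoxc10 domains below.

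Accessibility had been profiled by ATAC-seq, which marks open chromatin by insertion of a transposase, in EBs of mouse embryonic stem cells, steered to motor neurons by 1 µM retinoic acid (RA) and 0.5 µM SAG, an agonist of Hedgehog signalling. There were 12 samples in 6 groups of 2, and each group had 1 list of domains that the authors made from both of its samples. The EBs before patterning and the progenitors after 2 days of RA and SAG came from the line Ainv15(iCre). The iHoxc6, iHoxc9 and iHoxc10 groups came from lines Ainv15(iFlag.Hoxc6), Ainv15(iFlag.Hoxc9) and Ainv15(iFlag.Hoxc10), received 4 days of RA and SAG, and carried doxycycline (Dox, 3 µg/mL) from day 2 for 48 h. The no Dox group was Ainv15(iFlag.Hoxc6) with 4 days of RA and SAG and no Dox. Each inducible line has 1 copy of a Flag-tagged transgene at the HPRT locus, so each factor was tested in 1 engineered line, and factor and line cannot be told apart. The labels call every sample embryoid bodies. At promoters, taken as TSS ± 1 kb, Pou5f1 and Nanog, genes of pluripotent cells, had domains in the EB list (2 and 1) and in no later list. The motor neuron genes Olig2, Isl1, Mnx1 and Lhx3 had 1 to 3 promoter domains in each of the 6 lists, EBs included, and Chat, which makes acetylcholine, had 1 to 3 in each list except iHoxc9, where it had 0.

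Hox proteins are homeodomain transcription factors that give motor neurons their position along the spinal cord. Hoxc6 belongs to brachial, Hoxc9 to thoracic and Hoxc10 to lumbar levels, so the pair studied here belongs to the limb levels on either side of the thoracic cord. Central Hox proteins such as Hoxc6 favour sites with a TAAT core. Posterior ones such as Hoxc9 and Hoxc10 favour TTTAT, which reads ATAAA on the other strand. PBX and MEIS proteins can bind beside Hox proteins. A newly accessible stretch of DNA usually marks a site where bound factors have displaced nucleosomes, often an enhancer.

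To show what these regions look like, 8 of the longest stretches shared by an iHoxc10 and an iHoxc6 domain are printed below by their nearest protein-coding gene, cut to their central 200 bp (GRCm38). Capitals mark the central Hox consensus, which is TAAT, then A, G or T, then A or G, and the posterior Hox consensus, which is ATAAA after 2 bases other than G, both read on either strand. Each line gives the gene, the position and the forward strand.
Laptm5, chr4:130921188-130921387: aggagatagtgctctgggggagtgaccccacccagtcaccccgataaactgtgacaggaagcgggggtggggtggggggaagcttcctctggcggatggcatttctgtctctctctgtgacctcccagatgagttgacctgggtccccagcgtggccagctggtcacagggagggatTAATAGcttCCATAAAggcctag
Rfx4, chr10:84741090-84741289: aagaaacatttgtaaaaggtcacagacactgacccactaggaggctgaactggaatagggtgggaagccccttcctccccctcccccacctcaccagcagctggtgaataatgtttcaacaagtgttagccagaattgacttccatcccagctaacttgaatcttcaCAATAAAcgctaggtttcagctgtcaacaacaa
Pde5a, chr3:122800765-122800964: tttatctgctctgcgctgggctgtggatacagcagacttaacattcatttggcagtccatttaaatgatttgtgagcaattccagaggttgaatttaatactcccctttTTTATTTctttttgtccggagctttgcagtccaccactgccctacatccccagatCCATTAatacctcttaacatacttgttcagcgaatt
Zfp423, chr8:87933039-87933238: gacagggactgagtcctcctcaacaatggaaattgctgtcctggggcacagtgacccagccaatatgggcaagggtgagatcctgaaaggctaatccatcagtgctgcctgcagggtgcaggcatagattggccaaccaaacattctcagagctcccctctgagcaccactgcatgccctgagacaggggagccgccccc
Tagln3, chr16:45719066-45719265: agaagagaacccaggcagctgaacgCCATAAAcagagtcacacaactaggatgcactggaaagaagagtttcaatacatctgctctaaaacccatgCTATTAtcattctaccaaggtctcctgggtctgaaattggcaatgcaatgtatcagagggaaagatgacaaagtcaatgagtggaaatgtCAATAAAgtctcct
Ski, chr4:155187509-155187708: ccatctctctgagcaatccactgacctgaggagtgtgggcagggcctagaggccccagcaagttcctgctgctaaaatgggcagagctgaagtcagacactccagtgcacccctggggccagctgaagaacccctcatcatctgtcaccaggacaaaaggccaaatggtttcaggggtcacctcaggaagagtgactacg
Ppp2r2c, chr5:36855278-36855477: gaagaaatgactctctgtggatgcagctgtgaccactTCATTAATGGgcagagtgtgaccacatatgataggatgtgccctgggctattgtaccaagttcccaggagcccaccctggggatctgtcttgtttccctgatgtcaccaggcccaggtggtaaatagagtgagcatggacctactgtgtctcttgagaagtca
Myt1l, chr12:29410432-29410631: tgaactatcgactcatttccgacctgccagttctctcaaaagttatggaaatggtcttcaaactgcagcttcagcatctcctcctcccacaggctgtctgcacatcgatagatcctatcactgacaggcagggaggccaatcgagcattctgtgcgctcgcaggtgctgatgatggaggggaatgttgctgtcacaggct
Of these 8 sequences, 5 held a match and 3 held none. The Tagln3 stretch held 1 central and 2 posterior matches, and the Ppp2r2c stretch held a pair of overlapping central matches, 1 on each strand, with no posterior match. In the Laptm5 and Pde5a stretches there was 1 of each, and in the Rfx4 stretch 1 posterior match alone. The central 200 bp near Zfp423, Ski and Myt1l held neither string, and the whole domains near Zfp423 and Ski also lacked both, while that near Myt1l held 1 central match outside the printed bases.

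The iHoxc6/iHoxc10 domains were narrow. Their widths ran from 150 to 796 bp with a median of 232 bp (quartiles 190 and 281 bp), against a median of 411 bp for all iHoxc10 domains of the same minimum width. Only 68 of the 345 were 300 bp or wider (19.7%, 95% Wilson interval 15.9 to 24.2), compared with 65.7% of all. Intervals here and below cover the counting of domains and nothing else, because no list exists per sample. The other groups of iHoxc10 domains absent from the EB, day 2 and no Dox lists were narrow as well, with medians of 218 bp for the 950 domains seen with iHoxc10 alone, 245 bp for the 577 shared with iHoxc9 and 266 bp for the 429 shared with both. The width threshold cut through a dense range: 160 domains of 100 bp to under 150 bp met every other part of the rule, beside 110 of 150 bp to under 200 bp, and 703 below 150 bp did so in all. The 5 domains nearest to the threshold from below were 148 or 149 bp wide and shared 37 to 123 bp with iHoxc6, and the 5 nearest from above were 150 or 151 bp wide and shared 1 to 150 bp.

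The iHoxc6 side of the pair was often much smaller than the iHoxc10 side, and the rule itself favours this. It asks for 150 bp or more of the iHoxc10 domain and sets no minimum width for the iHoxc6 domain. The lists also differ, with a median width over all domains of 212 bp for iHoxc10 and 129 bp for iHoxc6. The widest overlapping iHoxc6 domain had a median width of 94 bp (quartiles 44 and 219 bp, range 21 to 985 bp). It was under 50 bp for 124 of the 345 (35.9%, 31.1 to 41.1), 150 bp or wider for 135 (39.1%, 34.1 to 44.4) and in between for 86 (24.9%, 20.7 to 29.8). In the iHoxc6 list as a whole, 36.5% of 91181 domains were under 50 bp and 45.1% were 150 bp or wider, so narrow partners were as frequent here as in that list. At the 30070 iHoxc10 domains that an uninduced list also held and that had an iHoxc6 partner, however, 90.5% of partners reached 150 bp and 2.89% stayed under 50 bp. Partners were wider at domains shared by all 3 induced lists (49.4% at 150 bp or wider, 44.7 to 54.1), an interval that began just above that of the iHoxc6/iHoxc10 domains. In the domains shared by iHoxc9 and iHoxc10, the iHoxc9 partner reached 150 bp in 62.6% (58.5 to 66.4), above the interval for the iHoxc6 partners here.

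**Figure D1:**
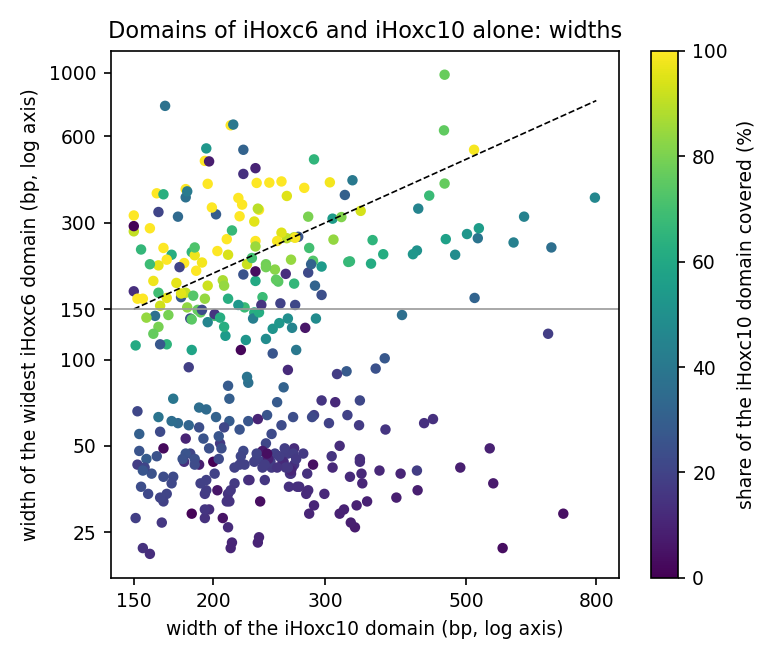
Width of each of the 345 iHoxc6/iHoxc10 domains in the iHoxc10 list (x axis, bp, log scale) against the width of the widest iHoxc6 domain that overlaps it (y axis, bp, log scale). Each point is 1 domain, its colour gives the share of the iHoxc10 domain that iHoxc6 domains cover, the dashed line marks equal widths and the grey line 150 bp; points gather in a lower band, with 124 partners under 50 bp, and an upper one, with 135 partners at 150 bp or wider.

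The calls of the 2 lists were only partly superimposed. The shared stretch had a median of 60 bp, or 26.2% of the iHoxc10 domain, and ranged from 1 to 508 bp. In 160 of 345 domains (46.4%) the iHoxc6 domain lay wholly inside the iHoxc10 domain, in 71 (20.6%) it was the wider of the pair, and in 118 (34.2%, 29.4 to 39.4) iHoxc6 domains covered 50% or more of the iHoxc10 domain. The midpoints were a median of 63 bp apart, and within 50 bp of each other in 139 domains (40.3%). A shared stretch under 25 bp was found in 28 domains (8.12%), and 3 domains had more than 1 iHoxc6 partner. Of the 345, 30 (8.70%, 6.16 to 12.1) were joined to an iHoxc6 domain that itself ran into a domain of an excluded list, so that there the iHoxc6 signal was part of a stretch also called elsewhere.

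Among the 10 domains with the longest shared stretches, 278 to 508 bp, 6 lay in introns and 4 between genes, 8 held a Hox consensus match somewhere in the domain, and 4 had a domain of an excluded list within 1 kb. The longest was in an intron of Laptm5, a lysosomal membrane protein gene of blood cells, at chr4:130921034-130921547. The iHoxc6 domain there was 539 bp wide and covered 98.8% of the iHoxc10 domain, and the nearest domain of any excluded list was 14.6 kb away. Near Rfx4, a transcription factor gene of the developing neural tube, the widest of all 345 domains spanned 796 bp at chr10:84740679-84741474, 15.0 kb from the TSS and at least 11.8 kb from any excluded domain. It held 4 posterior and no central matches, and a second domain lay 1.91 kb from the same TSS. By contrast, the domain in an intron of Pde5a at chr3:122800581-122801042 had an iHoxc9 domain 0.186 kb away and a no Dox domain 0.191 kb away, and its iHoxc6 partner, 985 bp wide, was the widest of all and itself ran into an excluded domain. The domain in an intron of Zfp423, a zinc finger gene of neural progenitors, had a no Dox domain 0.0380 kb away and an iHoxc6 partner that ran into an excluded domain, and that in an intron of Tagln3, a neuronal actin-associated gene, had one 0.0790 kb away. The remaining 5 lay in introns of Ski, a TGF-beta pathway repressor, and Whrn, and between genes near Sall3, Ppp2r2c and Myt1l, the last a transcription factor gene of neurons. In the Whrn intron, at chr4:63483673-63483950, the iHoxc6 domain covered the whole 278 bp, which held 1 central and 3 posterior matches.

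In each of the 5 widest domains the iHoxc6 partner was the narrower of the pair, which a choice by iHoxc10 width favours. Beside the domain near Rfx4 these were 710 bp near Klhl29, 680 bp in an intron of Cachd1, 672 bp in an intron of Inpp5a with Nkx6-2 as the nearest TSS, and 616 bp in an intron of Fbxw8. Their iHoxc6 partners measured 29, 246, 123 and 315 bp in that order. The domain in Fbxw8, at chr5:118118896-118119511, was dense in Hox strings with 7 central and 5 posterior matches, and its nearest excluded domain was 19.3 kb away. Nkx6-2 is a homeodomain gene of ventral spinal progenitors.

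Most iHoxc6/iHoxc10 domains lay more than 1 kb from any domain of the excluded lists. The median gap was 7.91 kb to the nearest EB domain, 6.56 kb to day 2, 5.49 kb to no Dox and 8.30 kb to iHoxc9. No domain of any excluded list lay within 1 kb for 219 of 345 (63.5%, 58.3 to 68.4), whereas 64 (18.6%, 14.8 to 23.0) had one within 200 bp. An iHoxc9 domain lay within 1 kb of 63 (18.3%, 14.5 to 22.7), and within 200 bp of 21 (6.09%). Closeness to iHoxc9 domains was much the same for the domains seen with iHoxc10 alone, of which 16% (13.8 to 18.5) had one within 1 kb, and for all iHoxc10 domains that overlap no iHoxc9 domain, with 22.3%. The no Dox list came closest, with a domain within 1 kb of 80 (23.2%, 19 to 27.9). This too was near the share of all iHoxc10 domains that overlap none of its domains, 23.1%. Counted in the same way, day 2 had 18.6% here and 18.5% of all, and EB 14.8% and 12.7%.

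**Figure D2:**
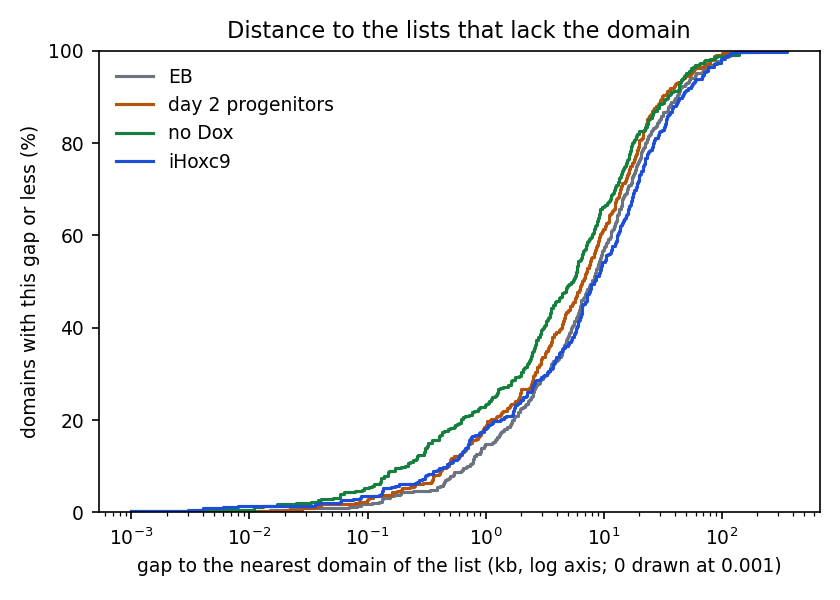
Share of the 345 iHoxc6/iHoxc10 domains (y axis, %) with a domain of the EB, day 2 progenitor, no Dox or iHoxc9 list at the given gap or less (x axis, kb, log scale). Each step line is 1 list. The no Dox line runs highest at 1 kb, at 23.2%, and the other lists stand between 14.8% and 18.6% there. Of all iHoxc10 domains that overlap no domain of the no Dox list, 23.1% had one that close.

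Sharing between Hoxc6 and Hoxc10 was not the most frequent pairing. Of 2301 iHoxc10 domains 150 bp or wider that overlapped no EB, day 2 or no Dox domain, 345 (15.0%) were shared with iHoxc6 alone, 577 (25.1%) with iHoxc9 alone, 429 (18.6%) with both and 950 (41.3%) with neither. Started from the iHoxc6 list, which is the longer one, 253 of 2028 such domains (12.5%) were shared with iHoxc10 alone, 281 (13.9%) with iHoxc9 alone, 321 (15.8%) with both and 1173 (57.8%) with neither. Started from iHoxc9, 603 of 2978 (20.2%) were shared with iHoxc10 alone and 358 (12%) with iHoxc6 alone. These shares all used the same uninduced lists and move with the length of each induced list, which was 91181 domains for iHoxc6, 63504 for iHoxc9 and 56232 for iHoxc10. The no Dox list came from the line of the iHoxc6 group and not from those of iHoxc9 and iHoxc10. Whether its exclusion weighs unevenly on the pairings was not tested.

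The iHoxc6/iHoxc10 domains lay mostly away from promoters. By midpoint, 189 of 345 lay in introns (54.8%, 49.5 to 60.0), 137 between genes (39.7%, 34.7 to 45), 10 in exons (2.90%) and 9 within 1 kb of a protein-coding TSS (2.61%, 1.38 to 4.88). Of all 33814 iHoxc10 domains, 38.7% lay that close to a TSS. The median distance to a TSS was 56.9 kb, compared with 7.79 kb for all, and 178 domains (51.6%, 46.3 to 56.8) were over 50 kb away. With all annotated genes in place of protein-coding ones, the median was 15.0 kb and the share within 1 kb of a TSS 6.09%. The other groups absent from the uninduced lists were as rarely at promoters, with 3.79% for iHoxc10 alone, 1.21% for iHoxc9 with iHoxc10 and 1.86% for all 3 induced, so distal position was shared by them. The domains shared by iHoxc9 and iHoxc10 lay farther out, with a median of 94.4 kb and 63.6% (59.6 to 67.4) over 50 kb away. Of the 10 in exons, 1 was in coding sequence, 3 in untranslated regions and 6 in noncoding transcripts.

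**Figure D3:**
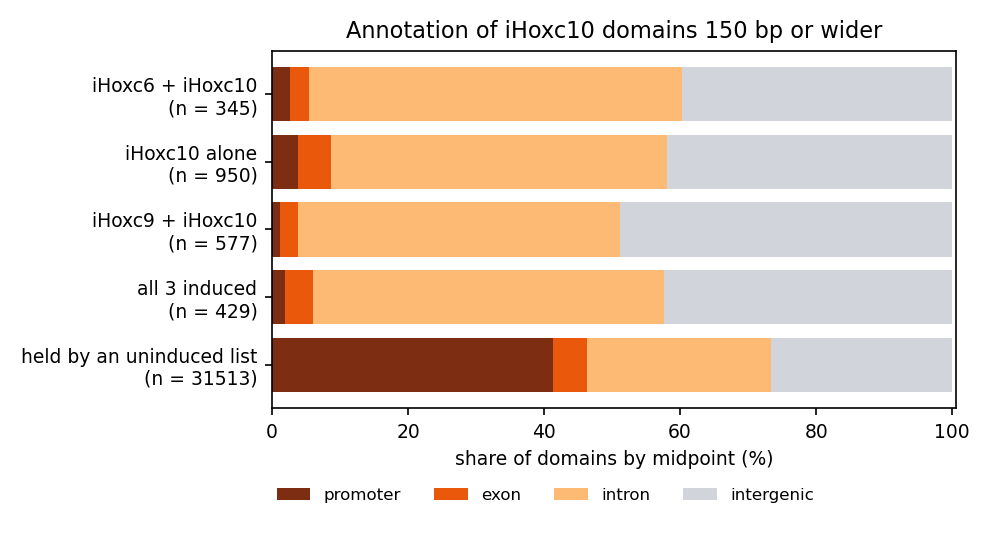
Share of iHoxc10 domains 150 bp or wider (x axis, %) whose midpoint lies at a promoter (within 1 kb of a protein-coding TSS), in an exon, in an intron or between genes, for 5 groups of domains (y axis). The promoter share is 2.61% in the iHoxc6/iHoxc10 domains and between 1.21% and 3.79% in the other 3 groups absent from the uninduced lists.

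The domains at promoters mostly had a small iHoxc6 partner. Of the 9, 8 are named here. They were at Nup62, Schip1, Ahcyl1, Fbrsl1, Hoxa10, Itprip, Tnfsf13b and Zdhhc4, with widths of 288, 268, 260, 250, 242, 241, 223 and 207 bp. The partner was 28 to 64 bp wide at 7 of these and 199 bp at Ahcyl1, where it shared 35 bp. Hoxa10, the HoxA paralogue of Hoxc10, had its domain at chr6:52234084-52234325, 0.734 kb from the TSS, with an iHoxc6 partner of 45 bp.

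In the Hox clusters, which hold the genes that set position along the body, 3 iHoxc6/iHoxc10 domains were found, 2 in HoxA, 1 in HoxD and 0 in HoxB and HoxC. The 4 clusters held 23, 19, 29 and 12 iHoxc10 domains of the same minimum width, in the order HoxA, HoxD, HoxB and HoxC. Besides the one at Hoxa10, the nearest TSS were those of Hoxa5, at 1.22 kb, and Hoxd3, at 1.38 kb, both named after their values were seen. These last 2 had wide iHoxc6 partners, 656 bp over a 213 bp domain and 767 bp over a 168 bp domain. Both partners themselves ran into a domain of an excluded list, and excluded domains lay 59 and 230 bp from the iHoxc6/iHoxc10 domains. None of the 345 domains had Hoxc6, Hoxc9 or Hoxc10 as its nearest gene or lay inside these genes. Among all iHoxc10 domains of the minimum width, 1 was nearest to Hoxc10 and 0 to Hoxc6 or Hoxc9, so this absence says little about the iHoxc6/iHoxc10 domains.

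The domains were scattered over the genome. They had 325 different nearest genes, of which 306 were nearest to 1 domain, 18 to 2 and 1 to 3, and only 4 domains had another one within 10 kb. The gene with 3 was Pax2, a paired-box transcription factor gene of spinal interneurons. Its domains lay between genes on chromosome 19, 84.9, 74.1 and 57.0 kb from the TSS, at chr19:44670917-44671417, chr19:44681835-44682042 and chr19:44698854-44699175. Their iHoxc6 partners were all over 150 bp, at 274, 181 and 375 bp, the last of which ran into an excluded domain, and the first held 5 central and 2 posterior matches. In the whole iHoxc10 list Pax2 was nearest to 13 domains of the minimum width.

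Most genes of motor neuron and spinal cord programs were nearest to no domain. Those that had any were nearest to a single one each, with Pax2 and Gfra1 as the exceptions. Over 11 lists with 217 genes, 26 genes were nearest to a domain, 29 domains in all. Gfra1, the receptor subunit for the neurotrophic factor GDNF, had 2, at chr19:58342971-58343274 in its own intron and at chr19:58107636-58107807, 347 kb from its TSS in an intron of Atrnl1. Their iHoxc6 partners were 60 and 37 bp wide. Ret, the signalling partner of Gfra1, and Nkx6-2 had 1 each, so 4 of 345 (1.16%, 0.452 to 2.94) were nearest to a gene of motor columns and pools, compared with 0.479% of all iHoxc10 domains. Genes of the TALE class, whose products bind DNA together with Hox proteins, also had 4 (1.16%, against 0.313% of all). Among them were 1 each nearest to Meis1, Pbx3 and Pknox1, at 260, 84.1 and 15.0 kb from the TSS. The domain in an intron of Pbx3, at chr2:34286855-34287250, held 2 central and 2 posterior matches. Axon guidance genes had 5 (1.45%, 0.621 to 3.35, against 1.04% of all), namely Efna5, Robo1, Sema6a, Slit1 and Unc5d. Their TSS lay 291, 48.5, 211, 45.6 and 213 kb from the domains in that order. Adhesion genes also had 5 (1.45% against 0.875%), namely Flrt2, Pcdh17, Tenm2, Tenm3 and Tenm4. There the distances were 13.7, 1066, 296, 1791 and 1037 kb, so the nearest gene was often far away. The 3 nearest to Pax2 made up the spinal interneuron list (0.870% against 0.266%), and the Hox genes also had 3 (0.870% against 0.275%). Onecut1 and Ebf3 had 1 each (0.580% against 0.145%), 312 and 25.9 kb from the TSS. Sox4 and Sox11 had 1 each (0.580% against 0.207%), 294 and 324 kb from the TSS. Motor neuron identity genes had 1, at Slc5a7, the choline transporter gene, 560 kb away (0.290% against 0.201%). Retinoic acid genes and genes of other cell types had 0, against 0.198% and 0.136% of all. A count of 0 of 345 domains allows a share of up to 0.870% (3 counts), or 1.10% by the Wilson interval, so both shares of all lay within it. Apart from Pax2 and Gfra1, these genes were named after their values were seen, and with 1 to 5 domains a list no difference from all domains was tested. The shares of all were not matched for distance to a TSS, whose median was 56.9 kb here and 7.79 kb for all iHoxc10 domains.

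Chromosome X held 1 of the 345 domains (0.290%, 0.0512 to 1.62), below the 2.25% of all iHoxc10 domains. The domains seen with iHoxc10 alone were likewise few there (0.421%, 0.164 to 1.08). Those shared by iHoxc9 and iHoxc10 had 1.04% (0.477 to 2.25) on X, and those shared by all 3 induced lists 2.33% (1.27 to 4.24). Of iHoxc10 domains away from promoters that an uninduced list also held, 1.79% were on X. Across the other chromosomes apart from Y, which had 0, the share of iHoxc10 domains that met the rule ran from 0.621% on chromosome 7 to 1.69% on chromosome 19.

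The central Hox consensus was more frequent in the iHoxc6/iHoxc10 domains than in the DNA beside them. In the central 150 bp, 152 of 345 (44.1%, 38.9 to 49.3) held it, against 32.3% (30.3 to 34.4) of 2070 windows of the same length placed 1, 2 and 5 kb to each side. Of the central windows of all iHoxc10 domains 150 bp or wider, 24.3% held the central consensus. Matches numbered 4.58 per kb in the central windows and 3.09 per kb beside them, and the rise was confined to the 2 bins of 100 bp next to the midpoint, at 4.67 and 4.43 per kb, among the bins within 0.7 kb, the others of which lay between 3.04 and 3.65 per kb. The string TAATTA, bound by LIM homeodomain factors and contained in the central consensus, was in 7.25% (4.96 to 10.5) of central windows and 4.54% of those beside them.

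The posterior consensus showed less of this. It was in 120 of 345 central windows (34.8%, 29.9 to 40) and in 28.0% (26.1 to 30.0) of windows beside them, and all iHoxc10 domains of that width had it in 17.4%. Counted as matches, there were 2.88 per kb in the central windows and 2.74 per kb beside them. The domains shared by iHoxc9 and iHoxc10 were the contrast, with a posterior match in 61.9% (57.8 to 65.7) and 6.25 matches per kb, against 3.24 per kb beside them. In domains shared by all 3 induced lists 50.1% (45.4 to 54.8) had one, and in those of iHoxc10 alone 35.7% (32.7 to 38.8). Over all GC contents, the iHoxc6/iHoxc10 domains thus lay with those of iHoxc10 alone. Their interval did not overlap that of either group that included iHoxc9. For the central consensus too, both groups that included iHoxc9 were higher over all GC contents. They stood at 54.6% (50.5 to 58.6) for iHoxc9 with iHoxc10 and 56.2% (51.4 to 60.8) for all 3, against 44.1% here and 40.4% for iHoxc10 alone. Neither string was found in 42.3% (37.2 to 47.6) of iHoxc6/iHoxc10 windows and 42.1% of iHoxc10-alone windows, compared with 20.3% for iHoxc9 with iHoxc10 and 25.9% for all 3. No list per sample exists, so these differences between groups of domains were not tested.

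**Figure D4:**
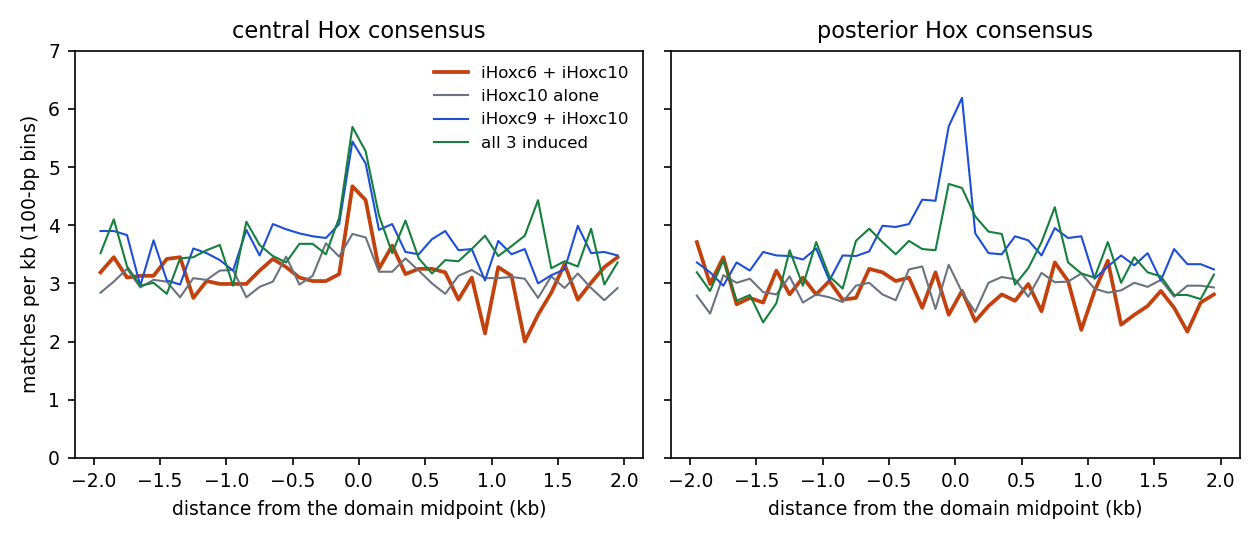
Matches to the central (left) and posterior (right) Hox consensus per kb (y axis, bins of 100 bp) by distance from the domain midpoint (x axis, kb) for 4 groups of iHoxc10 domains absent from the uninduced lists. In the iHoxc6/iHoxc10 domains (thick line) the central consensus reaches 4.67 per kb beside the midpoint and the posterior consensus stays at 2.46 and 2.87 per kb there.

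GC content moved with these shares. The central windows had a mean GC content of 47.0%, against 44.8% in the windows beside them and 56.3% in all iHoxc10 domains. Among windows with under 40% GC, 58.8% (45.2 to 71.2) of 51 iHoxc6/iHoxc10 domains and 61.7% of all iHoxc10 domains held the central consensus, and 52.9% against 56.8% held the posterior one. At 40 to 45% GC the values were 61.1% (50.8 to 70.5) against 50.8% for the central and 41.1% against 39.5% for the posterior consensus. At 45 to 50% GC they were 43.9% (33.7 to 54.7) against 40.6% and 43.9% (33.7 to 54.7) against 26.6%, and at 50% GC or more 25.4% (18.5 to 33.8) against 11.2% and 16.4% (10.9 to 24.0) against 6.58%. The value of all iHoxc10 domains thus lay below the interval of the iHoxc6/iHoxc10 domains at 45 to 50% GC for the posterior consensus and at 50% GC or more for both, but not under 40% GC. Set against the 18498 iHoxc10 domains that an uninduced list also held and that were not at promoters, a group added after the values were seen, the windows of 50% GC or more stood at 25.4% against 19% for the central consensus, within the interval, and at 16.4% against 10.2% for the posterior one, outside it. Over all GC contents that group had 34.2% and 23.4%. The domains shared by iHoxc9 and iHoxc10 were above the iHoxc6/iHoxc10 domains for the posterior consensus in every GC bin. The former had 78.8%, 67.8%, 56.3% and 36.5% from the lowest bin to the highest. Those shared by all 3 induced lists had 73.0%, 62.2%, 37.9% and 30.5%. At 45 to 50% GC they were thus below the 43.9% here, with iHoxc10 alone at 30.6%. For the central consensus, iHoxc9 with iHoxc10 had 69.2%, 61.4%, 49.6% and 30.4%, and all 3 induced had 73.0%, 61.3%, 59.5% and 32.4%. At 40 to 45% GC both were close to the 61.1% here, and in every bin their intervals overlapped that of the iHoxc6/iHoxc10 domains.

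Strings in which a PBX site stands beside a Hox site were less frequent. TGATNNAT was in 46 of 345 central windows (13.3%, 10.1 to 17.3), in 7.44% (6.39 to 8.65) of those beside them and in 7.07% of all iHoxc10 domains. It was in 11.1% of iHoxc10 alone, 16.5% of iHoxc9 with iHoxc10 and 11.9% of all 3 induced, each within the interval here. The stricter TGATTTAT was in 11 (3.19%, 1.79 to 5.62) against 0.773% beside them. TGACAG, the MEIS site, was in 15.1% (11.7 to 19.2) and 11.6%.

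Some strings of other neuronal and signalling factors were also more frequent than in the neighbouring DNA. ATCAAT, the core bound by Onecut factors, which are made in newborn motor neurons, was in 66 of 345 central windows (19.1%, 15.3 to 23.6) and in 6.14% (5.18 to 7.25) beside them. The ATCAAT share was the highest of the 4 groups, with 13.2% (11.2 to 15.5) in iHoxc10 alone, 12.3% (9.87 to 15.2) in iHoxc9 with iHoxc10 and 16.1% (12.9 to 19.9) in all 3 induced. The interval of the iHoxc6/iHoxc10 domains overlapped those of iHoxc10 alone and of all 3 induced. All iHoxc10 domains had 6.19%, and the iHoxc10 domains away from promoters that an uninduced list also held 8.64%. In the GC bins from low to high the iHoxc6/iHoxc10 domains had 27.5%, 26.7%, 22.0% and 8.20%, against 18.3%, 14.1%, 9.85% and 2.45% of all iHoxc10 domains. Under 40% GC they were not the highest of the 4 groups, as all 3 induced had 28.1%. In the other bins they were, but at 50% GC or more iHoxc9 with iHoxc10 was close, at 7.83%. AGGTCA, a site of nuclear receptors such as those for retinoic acid, was in 68 (19.7%, 15.9 to 24.2) against 9.03% (7.87 to 10.3) beside them, and in 17.9% to 19.3% of the other 3 groups. E-boxes of neural bHLH factors (CAGCTG or CATCTG) were in 24.6% (20.4 to 29.4) against 16.9% beside them, and the EBF string CCCNNGGG in 8.12% (5.67 to 11.5) against 3.57%. Both were near the shares of all iHoxc10 domains, 21.9% and 9.04%, whereas AGGTCA was in 10.7% of all. For SOX (ACAATG or ACAAAG) the values were 24.3% (20.1 to 29.1) against 19.9% beside them, with 20.4% of all iHoxc10 domains and 28.6% of those away from promoters that an uninduced list also held, for AP-1 (TGANTCA) 4.06% against 3.77%, for POU (ATGCAAAT) 0.870% against 1.26% and for the CTCF core AGGNGGC 8.12% (5.67 to 11.5) against 8.07%. The CTCF core was in 19.5% of all iHoxc10 domains and in 15.6% of those held by an uninduced list away from promoters, both above the interval here. For AP-1, POU and CTCF the interval included the value beside the domains, and for SOX and MEIS its lower end was just above it. A string match is a description of the sequence and does not show that a factor was bound.

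**Figure D5:**
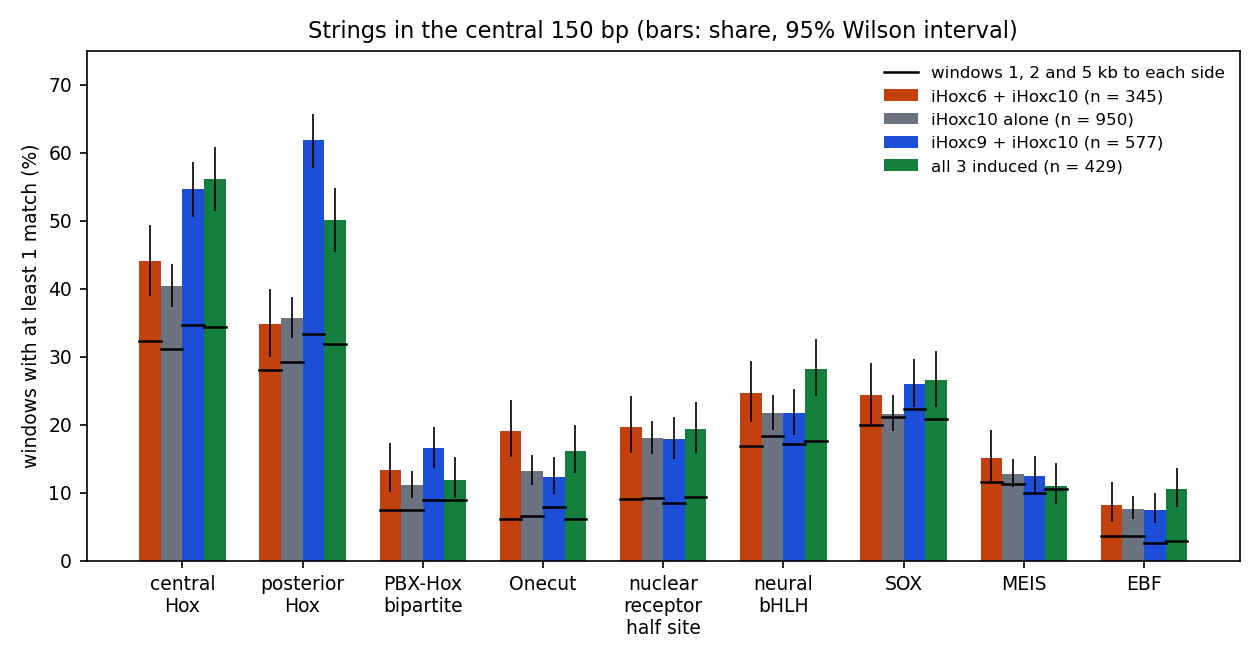
Share of central 150 bp windows with at least 1 match (y axis, %) for 9 strings in 4 groups of iHoxc10 domains absent from the uninduced lists. Bars give shares with 95% Wilson intervals and black lines the share in windows 1, 2 and 5 kb to each side; the posterior Hox bar is 34.8% for the iHoxc6/iHoxc10 domains and 61.9% for iHoxc9 with iHoxc10, and the Onecut bar is 19.1% for the former.

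Sequence differed little with the width of the iHoxc6 partner, and the intervals of the 3 classes overlapped. The central consensus was in 42.7% (34.4 to 51.5) of the 124 domains with a partner under 50 bp, 37.2% (27.7 to 47.8) of the 86 with a partner of 50 bp to under 150 bp and 49.6% (41.3 to 58.0) of the 135 with 150 bp or more, and the posterior consensus was in 36.3%, 30.2% and 36.3%. Mean GC content was 47.1%, 46.4% and 47.2%, and an excluded domain lay within 1 kb of 35.5%, 34.9% and 38.5%. At promoters were 6, 2 and 1 of them, so the few promoter domains came mostly with the narrowest partners. Repeats were rare, with over 50% of the central window masked in 9 of 345 domains (2.61%, 1.38 to 4.88) and a median masked share of 0.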

How the data were processed

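ATAC-seq domain lists of 6 groups, each of 2 samples, were used. Per the study's methods, the authors mapped paired-end reads to mm10 with Bowtie2 (2.2.2) and called domains with DomainFinder. The submitters' processing notes also name Picard (2.8.2). The deposited lists give the start and end of each domain in bp, without height, count or p-value, and 1 list was made from both samples of a group. Hence no spread between samples and no test across samples could be had, and read depth was not recorded. The no Dox list carries another day in its name than its label and has constant extra columns, its calling settings may differ, and per the labels it belongs to other sample records than the rest of the series. Cell line and calling are confounded with that exclusion.

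Coordinates were taken as BED starts, are printed counting from 1 and may be off by 1 bp. Genes came from GENCODE M21 and sequence from GRCm38. All domains of the 6 lists ended within the chromosomes of that build. Class and TSS distance were taken at the midpoint, and gaps from edge to edge. Strings were searched on both strands inside the central 150 bp. Shares have 95% Wilson intervals. The overlap, gap and string code was tested on simulated data (22 checks, 0 differed). Python 3.11.15, NumPy 2.4.6, SciPy 1.17.1, pysam 0.24.0, samtools 1.23.1 and Matplotlib 3.10.9 were used. Named were the 10 domains with the longest shared stretch, the 5 widest, up to 10 at promoters, genes nearest to 3 or more domains, listed genes nearest to 2 or more, and Hoxc6, Hoxc9 and Hoxc10; other names are said to be chosen after their values were seen. A few results are not reported here. The domains and gene lists were chosen with earlier results of these data known.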

Additional observations from a re-analysis of the deposited data

How the results depend on the processing

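No paired analysis was possible because each list pools both replicates of its group, and for the same reason no replicate could be left out. Of 59 alternative values, 36 lay within 1.5 times the count, within the interval of the share or, for GC content and TSS distance, within 1 SD over domains, which for TSS distance is wide. The count of 345 domains fell to 191 with an overlap of at least 50 bp, 118 with an overlap of 50% or more of the domain and 68 at a minimum width of 300 bp. It rose to 576 when domains under 50 bp were dropped from the excluded lists and to 1102 when the no Dox list was not excluded, a setting chosen after seeing the data. The promoter share of 2.61% became 0 at 300 bp and at 50% overlap, 1.05% at 50 bp overlap, 10.7% with TSS ± 5 kb and 6.09% with all annotated genes, which also brought the median TSS distance to 15.0 kb. Partners of 150 bp or wider rose from 39.1% to 64.9% at 50 bp overlap, 83.9% at 50% overlap, where narrow partners cannot qualify, and 55.0% without excluding no Dox. The posterior consensus went from 34.8% to 29.4% at 300 bp, 27.6% without excluding no Dox, 46.1% in whole domains and 47.5% for ATAAA. The central consensus went from 44.1% to 55.9% in whole domains, 66.4% for TAAT and 49.6% with partners of 150 bp or wider, chosen after seeing the data. PBX-Hox strings went from 13.3% to 20% in whole domains and 3.19% for TGATTTAT. An iHoxc9 domain lay within 5 kb of 36.2%. Taking the domains from the iHoxc6 list gave 253 with a posterior match in 33.6%; partner width could not vary there, since the rule fixes it. Apart from the narrower or wider rules themselves, the cause was not tested.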
